A study of Rattus rattus with 8 samples.

Results

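The 30 genes described here act in S phase, the part of the cell cycle in which DNA is copied. They were chosen by name, as genes of origin licensing, the replicative helicase, the polymerases, nucleotide supply and chromatin assembly, and all 30 are in the deposited table of 30957 genes. Their mRNA was measured in sorted cells of neonatal rat cardiomyocyte cultures, prepared from pups 1 to 3 days old of the strain labelled SD. All cultures, in both sorted fractions alike, had been depleted of fibroblasts by differential adherence, grown for 24 h with 0.2 mM AraC, starved of serum and kept at 1% oxygen for 48 h. AraC is a nucleoside analogue that blocks DNA synthesis and is used to hold back dividing non-muscle cells. Cells were then stained with the DNA dye Hoechst 33342 at 2 µg/mL and sorted into 4n (tetraploid, 4 libraries) and 2n (diploid, 4 libraries) fractions, and no culture at normal oxygen was compared. A 4n signal can come from a tetraploid nucleus, from a cell with a pair of 2n nuclei, from a cell in G2 or M phase, or from cells stuck together, which the labels do not separate. Each replicate number stands for 1 of 4 independent experiments, called a culture below.

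Before S phase, the origin recognition complex with Cdc6 and Cdt1 loads the MCM ring onto DNA, a step that geminin blocks once replication has begun. Cdc45, the GINS complex and Mcm10 then turn the ring into an active helicase, primase and DNA polymerase alpha start new strands, and the clamp PCNA holds the polymerases to their template. Most of these genes are induced together by E2F transcription factors as cells enter S phase. Heart muscle cells of rodents leave the cell cycle soon after birth, and many of them copy their DNA a last time without dividing, so that ploidy and S phase gene expression are linked subjects in this tissue.

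All 30 genes had enough counts to be tested, from 48 to 3804 per library, in libraries that held 14783521 to 21033772 counts. Levels between genes are compared per length, as FPKM (counts scaled to gene length and library total, as the authors deposited them). The most abundant were Pcna and Rrm1, with means over the 8 libraries of 55.3 and 45.4 FPKM, and the least abundant was Gins2, at 1.41 FPKM. All other levels below are CPM unless FPKM is named. CPM are counts scaled to the library total times a TMM factor, which lay between 0.828 and 1.11, and compare a gene only with itself. FPKM holds no such factor, so the order of libraries can differ between CPM and FPKM.

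Marker genes of both cardiomyocytes and fibroblasts were detected in every library. The 11 cardiomyocyte markers summed to between 4118 and 30295 CPM in 4n libraries and between 494 and 964 CPM in 2n libraries, with none at 0. The 10 fibroblast markers summed to between 29580 and 51697 CPM in 4n and between 44506 and 57865 CPM in 2n, with none at 0. These sums are not scaled to gene length and compare libraries, not cell types. Endothelial markers (7 of 8 found) summed to 70.5, 78.5, 89.5 and 423 CPM in 4n replicates 1 to 4. In 2n they lay between 26.8 and 57.2 CPM, with Cldn5 at 0 in some 2n libraries. Smooth muscle and pericyte markers (8 of 8) lay between 3515 and 6514 CPM in 4n and between 2894 and 5928 CPM in 2n. Epicardial and mesothelial markers (6 of 6) stayed under 119 CPM, and immune markers (8 of 8) reached 16.5 CPM in 4n and 7.80 CPM in 2n, with Cd3e at 0 throughout. The mitochondrial chromosome gave 3.71% of counts in 4n replicate 1, 24.1% to 25.9% in the other 4n libraries and 2.87% to 3.82% in 2n. In such bulk samples, fewer cells in S phase and less of a transcript per cell cannot be told apart, and the part of cell type content in the results below was not tested.

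No S phase gene differed between 4n and 2n cells past the threshold. Of the 30 genes, 0 were higher and 0 lower in 4n (quasi-likelihood test of edgeR, threshold of 0.05 on p adjusted over 12983 genes; smallest adjusted p = 0.280), where 2.67% of all genes tested were called higher and 0.0077% lower. Before adjustment, p was under 0.05 for 3 of the 30, all higher in 4n, against 12.5% of all genes higher and 4.82% lower, and DESeq2 called 0 with 3 under an unadjusted 0.05. With the replicate number as a block the counts were again 0 and 0 (smallest edgeR adjusted p = 0.0667), while 4.27% of all genes were called higher and 0.608% lower. The median log2 fold change, 4n minus 2n, was 0.08 over the 30 genes and -0.01 over all genes, with 20 of the 30 above 0. Scaled by total counts, the median over all genes moved to -0.25 and that of the 30 genes to -0.16, with 7 above 0, so the sign of the group's median depends on the scaling. Single genes had log2 fold changes from -0.30 to 0.73 with standard errors from 0.15 to 0.42. For 24 of the 30 the 95% interval lay within a doubling either way, which still leaves room for moderate differences. These errors and intervals come from the fit without the block. They ignore the pairing by replicate number, and the spread between cultures is part of their width.

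The direction of 4n against 2n changed with the culture. In the pair of replicate 1, 30 of 30 genes were above 0 (49.8% of all genes tested were), with a median log2 difference of 0.45. Replicate 2 went the other way, with 7 of 30 above 0 (48.9% of all genes) and a median of -0.12. In the pairs of replicates 3 and 4, 19 and 14 of 30 were above 0 (50% and 48.6% of all genes), with a median of 0.20 in replicate 3 and -0.0021 in replicate 4. Higher levels in 4n in all 4 pairs were found for 5 genes, Fen1, Gins2, Pcna, Rrm2 and Ung, or 5 of 30 against 20.2% of all genes. Lower levels in all 4 pairs were found for 0 of 30 against 19.7%. These directions depend on the scaling of the libraries. In FPKM, 4n was below 2n in replicate 2 for Pcna (65.6 against 82.6), Gins2 (1.69 against 2.10), Rrm2 (11.4 against 13.0) and Fen1 (7.49 against 8.43). Of the 5 genes, only Ung was higher in 4n in all 4 pairs in FPKM. The shift in FPKM is not particular to these genes. On FPKM the median log2 fold change, 4n minus 2n, was -0.26 over all genes and -0.14 over the 30. The share of all genes by pair in FPKM was not counted. For none of the 30 did the 4n libraries all lie above the 2n libraries (7.68% of all genes) or all below them (3.69%).

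**Figure D1:**
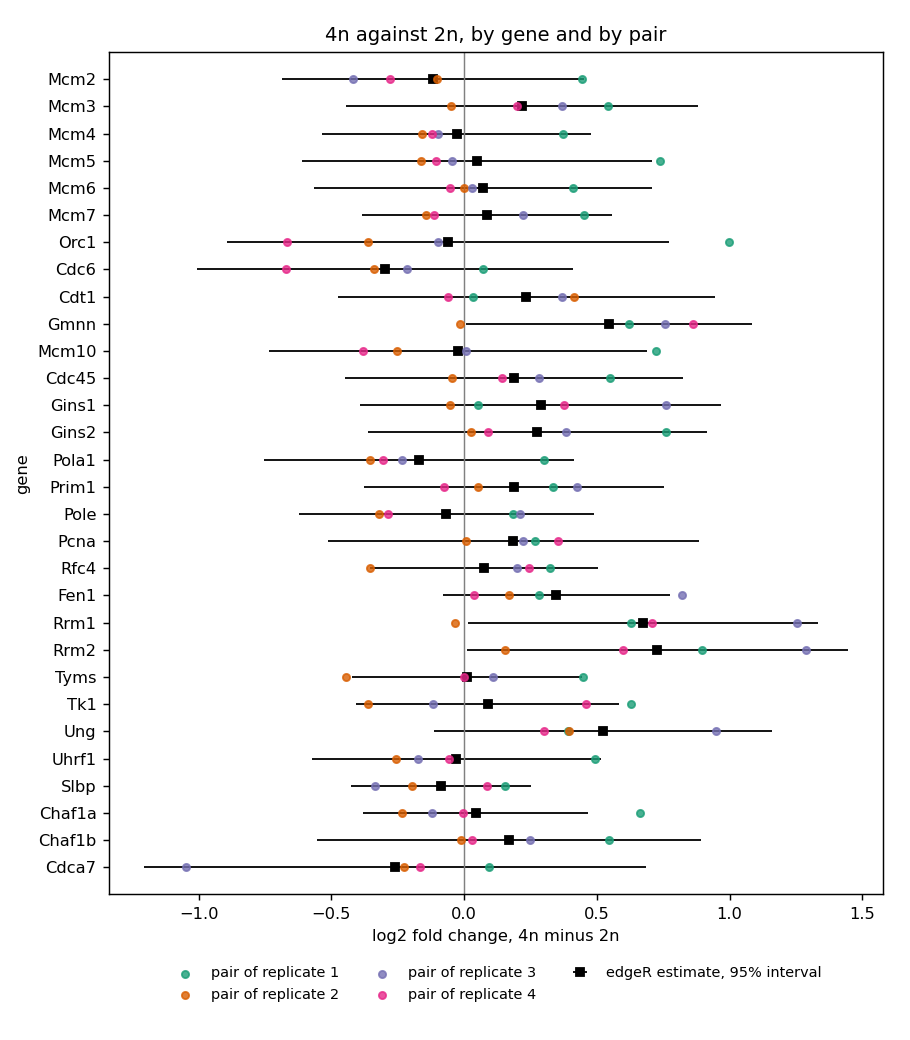
Log2 fold change of each gene, 4n minus 2n (x axis). Squares are edgeR estimates with 95% intervals from the fit without the replicate block. Coloured points are the difference within each pair of libraries of the same replicate number (log2 CPM, prior count of 2). Pairs of replicate 1 are above 0 for all 30 genes, and most pairs of replicate 2 lie at or below 0.

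The same genes varied between cultures. A test of the 4 cultures against each other, with the fraction held, called 8 of the 30 genes (edgeR, adjusted p under 0.05), Mcm3, Mcm6, Cdc6, Cdt1, Prim1, Pcna, Chaf1b and Cdca7, where 8.21% of all genes were called. At an unadjusted p under 0.05 it took 22 of 30, against 30.3% of all genes. On log2 CPM, culture accounted for a median of 79.0% of a gene's variance over the 8 libraries and fraction for 4.85%. Over all genes tested these medians were 56.1% and 17.1%. Culture has more degrees of freedom than fraction, so each share compares with that of all genes, not with the other share. The spread in this test is that between the 4n and 2n libraries of a culture, with 3 residual degrees of freedom, and a culture is a single sample of its kind.

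The count of 8 rests on single libraries. It was 0 without 4n replicate 4, 2n replicate 2 or 2n replicate 4, 1 (Pcna) without 4n replicate 2, 15 without 4n replicate 3 and 20 without 2n replicate 3, while 14, 14, 17, 20, 22 and 23 of the 30 genes in that order had an unadjusted p under 0.05 in edgeR. The counts over all genes moved with them. The number called was 52 of 13114 without 4n replicate 4, 139 of 13206 without 2n replicate 2 and 62 of 13124 without 2n replicate 4. It was 162 of 13179 without 4n replicate 2, 1935 of 13165 without 4n replicate 3 and 3308 of 13196 without 2n replicate 3. The share of all genes at an unadjusted p under 0.05 in edgeR ran from 19.2% without 4n replicate 4 to 42.3% without 2n replicate 3. Without both libraries of replicate 2 the count was 1 (Pcna), with 13 of the 30 at an unadjusted p under 0.05 in edgeR. Over all genes, 224 of 13115 were then called and 22.1% had an unadjusted p under 0.05. Without those of replicate 3 the count was 20, against 2520 of 13019 over all genes. Without those of replicate 4 it was 0, with 18 at an unadjusted p under 0.05, against 64 of 12946 called and 22.0% unadjusted over all genes. DESeq2 called 19 of the 30 genes and 2436 over all genes, and limma on FPKM called 5 and 1516.

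Replicate 2 held the highest levels. Of the 30 genes, 18 were highest of the 4 cultures in replicate 2 in both fractions, a pattern of 10.9% of all genes tested, and 0 of the 30 were highest in both fractions in replicate 1, 3 or 4 (15.5%, 8.89% and 10.4% of all genes). In the 2n libraries alone replicate 2 was highest for 30 of 30 genes, against 3341 of 12983 over all genes tested, and in the 4n libraries for 18 of 30, against 2768 of 12983. These ranks are of CPM, and those in 4n depend on the scaling. In FPKM, Mcm7, Orc1, Pola1, Uhrf1 and Chaf1a, all among the 18, were higher in 4n replicate 1 than in 4n replicate 2. Replicate 3 was highest in the 4n libraries for 9 of 30, near the 4401 of 12983 over all genes. At the low end, 10 genes were lowest in both fractions in replicate 1 (17.2% of all genes) and 4 in replicate 4 (9.54%). The median log2 difference of replicate 2 from the mean of the other 3 cultures was 0.61 over the 30 genes and -0.01 over all genes, with 29 of 30 above 0. It was 0.46 within 4n and 0.75 within 2n, and 0.56 with total count scaling. For replicates 1, 3 and 4 the same median was -0.42, 0.19 and -0.38.

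Tested one culture at a time in the same model, replicate 2 had 5 of the 30 genes called higher (Mcm3, Mcm6, Cdt1, Pcna and Chaf1b), against 0.67% of all genes, and 0 lower, against 1.97%. Replicate 1 had 2 called lower (Mcm3 and Pcna), against 3.4%, and 0 higher, against 4.53%. In edgeR 0 of the 30 were called in replicate 3 (0.146% of all genes higher, 0.139% lower) or in replicate 4 (3.67% higher, 0.439% lower). These contrasts compare these libraries, since no other culture repeats the state of replicate 2, and replicate 2 was singled out with earlier results of these data known.

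**Figure D2:**
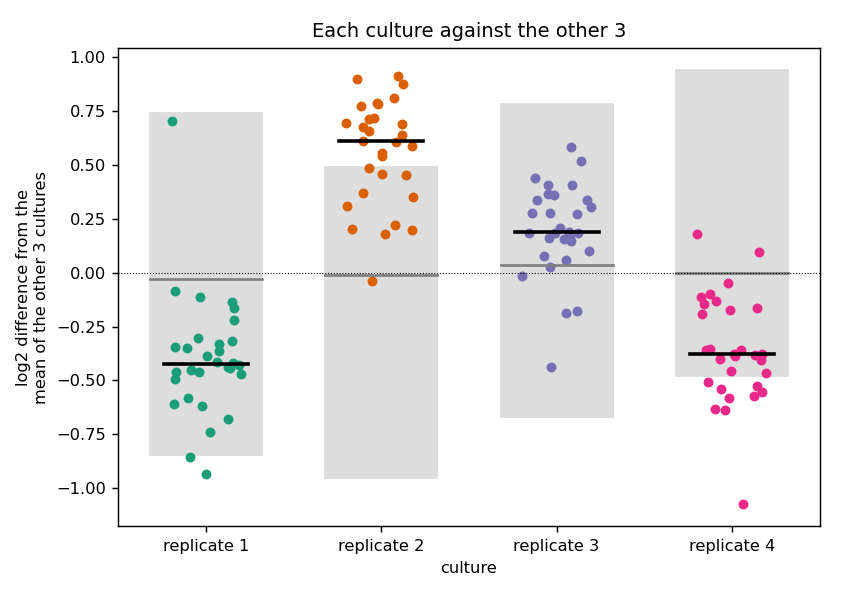
Log2 difference of each culture from the mean of the other 3, with the fraction held, for the 30 genes (points; black bar, their median). Grey boxes span the 5th to 95th percentile of all genes tested and the grey bar is the median of all genes; the points of replicate 2 centre on 0.61, those of replicates 1 and 4 on -0.42 and -0.38.

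The heat map of library levels shows these patterns gene by gene, and the values below follow the order of the genes' roles.

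**Figure D3:**
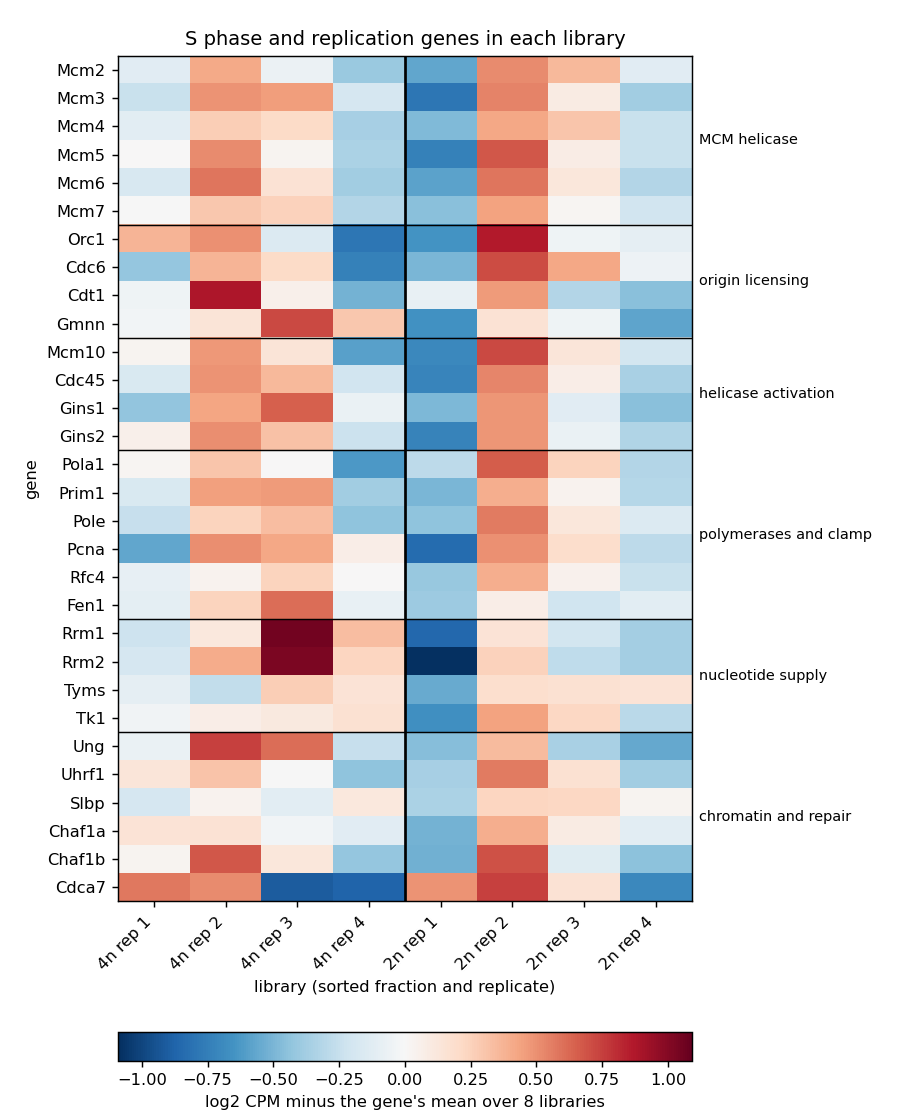
Log2 CPM of each gene minus its mean over the 8 libraries (colour), with 4n libraries left of the vertical line and 2n libraries right of it, and genes grouped by role. The columns of replicate 2 are mostly red in both fractions, while Rrm1 and Rrm2 are darkest in 4n replicate 3 and Cdca7 is high in replicates 1 and 2.

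The MCM genes, Mcm2 to Mcm7, encode the 6 subunits of the replicative helicase. In CPM, each of the 6 was highest in replicate 2 in both fractions. In FPKM, Mcm7 was higher in 4n replicate 1 than in 4n replicate 2 (27.1 against 25.9). Their summed level in replicate 2 was 519 CPM in 4n and 557 CPM in 2n, above the other cultures, which had 308 to 440 CPM in 4n and 260 to 442 CPM in 2n. Their median log2 difference of replicate 2 from the other 3 was 0.65, from 0.46 to 0.79. Between cultures 6 of 6 had an unadjusted p under 0.05 in edgeR, against 30.3% of all genes tested. Mcm6, on chromosome 13 from 45042882 to 45068077 (Rnor_6.0, as all positions here), had 60.8, 102, 76.2 and 52.8 CPM in 4n replicates 1 to 4, against 45.7, 103, 74.7 and 54.8 CPM in 2n. Replicate 2 stood highest in both fractions, and the fractions differed most in replicate 1, by 0.41 on the log2 scale. Mcm6 differed between cultures (edgeR adjusted p = 0.0206) and was higher in replicate 2 by a log2 difference of 0.78 ± 0.11 (SE). Mcm3, on chromosome 9 from 26914057 to 26932201, had 46.3, 77.0, 75.3 and 48.3 CPM in 4n, against 31.8, 79.8, 58.3 and 42.1 CPM in 2n. Its lowest level was in replicate 1 in both fractions, and it differed between cultures (edgeR adjusted p = 0.0248), with a log2 difference of 0.70 ± 0.13 for replicate 2 and -0.68 ± 0.14 for replicate 1 (SE). Mcm2, Mcm4, Mcm5 and Mcm7 missed the threshold between cultures, with edgeR adjusted p from 0.0585 to 0.0987. Between 4n and 2n, the 6 log2 fold changes lay between -0.12 and 0.22 with overlapping groups.

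Of the genes that license origins, Cdt1 and Cdc6, which load the MCM ring, differed between cultures. Cdt1, on chromosome 19 from 55381565 to 55386511, had 9.61, 18.3, 10.3 and 6.93 CPM in 4n replicates 1 to 4, against 9.38, 13.7, 7.95 and 7.23 CPM in 2n. Replicate 2 stood clear of the rest in both fractions (log2 difference 0.90 ± 0.16 SE), and the cultures differed (edgeR adjusted p = 0.0430). Cdc6, on chromosome 10 from 86819472 to 86833402, had 9.34, 16.2, 14.4 and 7.52 CPM in 4n, against 8.90, 20.6, 16.8 and 12.1 CPM in 2n. Its log2 fold change, 4n minus 2n, was -0.30 ± 0.32 (SE, edgeR adjusted p = 0.664), and its cultures differed (edgeR adjusted p = 0.0485). Orc1, the largest subunit of the origin recognition complex, was low and spread widely, from 3.50 to 8.54 CPM in 4n and from 3.84 to 11.0 CPM in 2n, and its cultures did not pass (edgeR adjusted p = 0.226).

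Gmnn, which encodes geminin, the inhibitor of Cdt1 that accumulates through S and G2 phase, had another order of libraries than Cdt1. On chromosome 17 from 42302540 to 42310783, it had 10.4, 11.7, 17.4 and 13.0 CPM in 4n replicates 1 to 4, against 6.70, 11.8, 10.3 and 7.09 CPM in 2n. The 4n library was above its 2n partner in 3 of 4 pairs, all but replicate 2. There the fractions were level in CPM, with 4n lower in FPKM (8.57 against 11.0). Its mean was 13.1 ± 3.08 CPM in 4n and 8.97 ± 2.47 CPM in 2n (SD, n = 4 each). The log2 fold change of 0.55 ± 0.24 (SE) did not pass, at an edgeR adjusted p of 0.284, or 0.0908 with the block. Its highest level was in replicate 3 in 4n and in replicate 2 in 2n.

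The helicase activators Mcm10, Cdc45, Gins1 and Gins2 had log2 differences of replicate 2 from the other cultures between 0.61 and 0.78. Between cultures 4 of 4 had an unadjusted p under 0.05 in edgeR (30.3% of all genes tested). Past the adjusted threshold there were 0 of 4 (8.21% of all genes). Cdc45, on chromosome 11 from 86329012 to 86358453, had 12.3, 19.5, 17.7 and 12.0 CPM in 4n replicates 1 to 4, against 8.41, 20.1, 14.5 and 10.8 CPM in 2n. Both fractions ran in a similar order, with replicate 2 highest, and the cultures missed the threshold (edgeR adjusted p = 0.0516). The locus of Cdc45 overlaps that of Cldn5 in the table, an endothelial gene with 20.5 CPM in 4n replicate 4 and at most 1.79 CPM in the other libraries, where reads of the 2 genes may be hard to tell apart. Gins2, a GINS subunit on chromosome 19 from 54151048 to 54163608, had 5.96, 8.17, 7.15 and 4.89 CPM in 4n, against 3.47, 8.02, 5.46 and 4.59 CPM in 2n. In CPM it was above its 2n partner in 4 of 4 pairs by a small margin (log2 fold change 0.28 ± 0.28 SE, edgeR adjusted p = 0.657). In FPKM it was below its partner in replicates 2 and 4.

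Among the genes of DNA synthesis, Pcna, the sliding clamp, gave the smallest p between cultures. Located on chromosome 3 from 124880698 to 124884570, it had 41.7, 87.9, 82.6 and 64.8 CPM in 4n replicates 1 to 4, against 34.6, 87.4, 70.7 and 50.7 CPM in 2n. The order of the cultures was the same in both fractions, with replicate 2 highest and replicate 1 lowest (edgeR adjusted p = 0.00969 between cultures). Replicate 2 was higher than the other 3 by 0.68 ± 0.10 and replicate 1 differed from the other 3 by -0.94 ± 0.11 on the log2 scale (SE). Prim1, the catalytic subunit of primase on chromosome 7 from 2435553 to 2451165, had 31.6, 48.2, 48.9 and 27.2 CPM in 4n, against 25.0, 46.5, 36.4 and 28.6 CPM in 2n. Replicates 2 and 3 were the high cultures in both fractions (edgeR adjusted p = 0.0431 between cultures). Pola1 and Pole, catalytic subunits of DNA polymerases alpha and epsilon, had log2 differences for replicate 2 of 0.64 ± 0.14 and 0.54 ± 0.14 (SE), and their cultures did not pass (edgeR adjusted p = 0.0593 and 0.0682).

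Rfc4, a subunit of the clamp loader, and Fen1, the nuclease that trims Okazaki fragments, had log2 differences for replicate 2 of 0.31 ± 0.17 and 0.20 ± 0.17 (SE). Fen1, on chromosome 1 from 226251518 to 226255886, had 14.8, 18.8, 24.2 and 15.0 CPM in 4n replicates 1 to 4, against 12.1, 16.7, 13.7 and 14.7 CPM in 2n. In CPM the 4n library was above its partner in 4 of 4 pairs, most of all in replicate 3 (log2 fold change 0.35 ± 0.19 SE, edgeR adjusted p = 0.385). In FPKM it was below its partner in replicates 2 and 4. Between cultures neither gene passed (edgeR adjusted p = 0.311 for Rfc4 and 0.340 for Fen1).

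The genes of nucleotide supply were highest in replicate 3 or 4 among the 4n libraries, and in replicate 2 among the 2n libraries. Rrm1 and Rrm2 encode the large and small subunits of ribonucleotide reductase, which makes deoxynucleotides. Rrm1, on chromosome 1 from 167538387 to 167562687, had 112, 142, 272 and 166 CPM in 4n replicates 1 to 4, against 72.6, 145, 114 and 101 CPM in 2n. The level in 4n replicate 3 exceeded all others. In replicate 2 the fractions were level in CPM, with 4n lower in FPKM (40.8 against 52.9). Its mean was 173 ± 69.5 CPM in 4n and 108 ± 30.2 CPM in 2n (SD, n = 4 each). The log2 fold change of 0.68 ± 0.29 (SE), with a 95% interval from 0.02 to 1.34, did not pass, at an edgeR adjusted p of 0.280, or 0.0919 with the block.

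Rrm2, on chromosome 6 from 43884678 to 43889515, had 10.3, 15.5, 23.7 and 13.7 CPM in 4n replicates 1 to 4, against 5.48, 13.9, 9.64 and 9.03 CPM in 2n. In CPM the 4n library was above its partner in 4 of 4 pairs, and in FPKM in all but replicate 2 (11.4 against 13.0). Rrm2 had the largest log2 fold change of the 30 genes, 0.73 ± 0.32 (SE), short of the threshold (edgeR adjusted p = 0.283, or 0.0667 with the block). A second locus with the same description as Rrm2, LOC100359539, on chromosome 19 from 25391700 to 25394229, held several times more reads, so the split of reads between the 2 loci is uncertain. It had 51.1, 60.6, 99.5 and 84.4 CPM in 4n, against 31.3, 68.5, 61.1 and 57.2 CPM in 2n. Like Rrm1 and Rrm2 it was highest in 4n replicate 3 and lowest in 2n replicate 1, and its log2 fold change was 0.44 ± 0.28 (SE, edgeR adjusted p = 0.448). 4n replicate 3 was also the library with the most cardiomyocyte marker transcripts, and the part of these in the ribonucleotide reductase levels was not tested.

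Tyms, thymidylate synthase, and Tk1, thymidine kinase, which provide thymidine nucleotides by synthesis and by salvage, did not pass in either test. Tyms lay between 22.5 and 32.7 CPM in 4n and between 18.5 and 30.7 CPM in 2n, and was the only gene of the 30 with a log2 difference below 0 for replicate 2 (-0.04 ± 0.17 SE). Tk1 had 41.9 ± 2.43 CPM in 4n and 39.3 ± 13.0 CPM in 2n (SD, n = 4 each). The spread of Tk1 was wider in 2n, from 25.0 to 53.7 CPM, than in 4n, from 38.7 to 44.5 CPM. Between cultures the edgeR adjusted p was 0.289 for Tyms and 0.297 for Tk1.

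In the last group, Chaf1b, a subunit of the chromatin assembly factor CAF-1 that places histones on new DNA, had the largest difference of replicate 2. On chromosome 11 from 34101197 to 34121378, it had 8.59, 13.4, 9.15 and 6.28 CPM in 4n replicates 1 to 4, against 5.85, 13.6, 7.68 and 6.15 CPM in 2n. Replicate 2 was alone at the top in both fractions, by a log2 difference of 0.91 ± 0.17 (SE), and the cultures differed (edgeR adjusted p = 0.0493). Its partner Chaf1a, the large CAF-1 subunit, had a log2 difference of 0.37 ± 0.18 (SE), and its cultures did not pass (edgeR adjusted p = 0.386). Whether the subunits differ in this respect was not tested.

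Cdca7, a chromatin remodelling cofactor and target of Myc and E2F factors, had its own pattern. On chromosome 3 from 59153280 to 59163913, it had 19.8, 18.9, 7.08 and 7.23 CPM in 4n replicates 1 to 4, against 18.5, 22.1, 14.8 and 8.13 CPM in 2n. It was high in replicates 1 and 2 and lowest in replicate 4 of the 2n and replicate 3 of the 4n libraries, and it was the only gene of the 30 with a log2 difference above 0 for replicate 1 (0.70 ± 0.21 SE; edgeR adjusted p = 0.0414 between cultures). For replicate 4 the log2 difference was -1.08 ± 0.24 (SE), the most negative of the group, at an edgeR adjusted p of 0.0513.

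Ung, the uracil-DNA glycosylase that removes uracil from new DNA, on chromosome 12 from 48246569 to 48254822, had 13.5, 23.8, 21.6 and 11.9 CPM in 4n replicates 1 to 4, against 10.3, 18.0, 11.1 and 9.65 CPM in 2n. It was above its partner in 4 of 4 pairs (log2 fold change 0.52 ± 0.28 SE, at an edgeR adjusted p of 0.380, or 0.0740 with the block) and highest in replicate 2 in both fractions (edgeR adjusted p = 0.0638 between cultures). Uhrf1, which guides maintenance methylation to newly copied DNA, was highest in replicate 2 as well in CPM, at 58.0 CPM in 4n and 69.3 CPM in 2n. Its edgeR adjusted p was 0.0882 between cultures. In FPKM, Uhrf1 was higher in 4n replicate 1 than in 4n replicate 2 (13.0 against 11.5). Slbp, which binds the stem loop of histone mRNAs, had the smallest standard error of the 30 genes between 4n and 2n, with a log2 fold change of -0.09 ± 0.15 (SE).

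Other genes of DNA replication, taken from a separate list of 48, of which 46 were tested, were examined in the same way. Of the 46, 0 were called higher and 0 lower in 4n in edgeR, with a median log2 fold change of 0.09, and 1 of 46 was called higher with the block, a smaller share than the 4.27% of all genes. That gene was Dut, the dUTPase that keeps uracil out of DNA (log2 fold change 0.72 ± 0.23 SE, at an edgeR adjusted p of 0.145, or 0.0454 with the block). Between cultures 5 of 46 passed, or 10.9%, near the 8.21% of all genes tested. Among them were Rpa1, of the single-strand binding protein, Wdhd1 and Timeless, which travel with the fork, and Pold2, a subunit of DNA polymerase delta, with edgeR adjusted p from 0.0355 to 0.0493. The median log2 difference of replicate 2 was 0.42, and 41 of the 46 were above 0.

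None of the 27 mitosis genes tested differed between cultures past the threshold, against 8.21% of all genes tested. At an unadjusted p under 0.05 in edgeR there was 1 of 27 (30.3% of all genes). Between 4n and 2n 0 of 27 passed in edgeR (2.67% of all genes higher, 0.0077% lower). With TMM scaling 27 of 27 log2 fold changes, 4n minus 2n, were above 0 (6253 of 12983 over all genes). Their median was 0.44, from 0.19 to 0.89. The part of cells in G2 or M phase was not tested. For replicate 2 the 27 genes had a median log2 difference of -0.29, with 1 of 27 above 0. Summed, they came to 1791, 1088, 2058 and 1905 CPM in 4n replicates 1 to 4, against 1400, 1319, 1183 and 1075 CPM in 2n, so replicate 2 had the lowest sum among the 4n libraries but the second highest among the 2n libraries. In replicate 2 the 4n sum was below its 2n partner, and in the other cultures it was above. The 30 S phase genes summed to 939, 1282, 1300 and 915 CPM in 4n, against 687, 1389, 1091 and 848 CPM in 2n. The ratio of the S phase sum to the mitosis sum was therefore highest in replicate 2, at 1.18 in 4n and 1.05 in 2n, above 0.480 to 0.632 in the other 4n and 0.491 to 0.923 in the other 2n libraries.

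Replicate 2 also had the lowest levels of genes known to be induced by low oxygen. The 14 tested summed to 2398 CPM in 4n and 2149 CPM in 2n in replicate 2, below the other cultures at 5954 to 6873 CPM in 4n and 5137 to 7450 CPM in 2n. Of the 14, 13 differed between cultures in edgeR, against 8.21% of all genes tested. Their median log2 difference for replicate 2 was -1.68. The summed smooth muscle and pericyte markers were highest in replicate 2 in both fractions, at 6514 CPM in 4n and 5928 CPM in 2n, of which Acta2, smooth muscle actin, gave 4708 CPM in 4n and 4427 CPM in 2n. The markers did not move as a set: 5 of 8 had log2 differences above 0 for replicate 2, with 1 called higher and 1 lower in edgeR, and the pericyte markers Kcnj8 and Rgs5 were at -1.34 and -0.83. The part of the hypoxia response, of cell type content or of the culture's handling in the S phase gene levels was not tested, and with 1 culture of this kind they cannot be told apart.

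**Figure D4:**
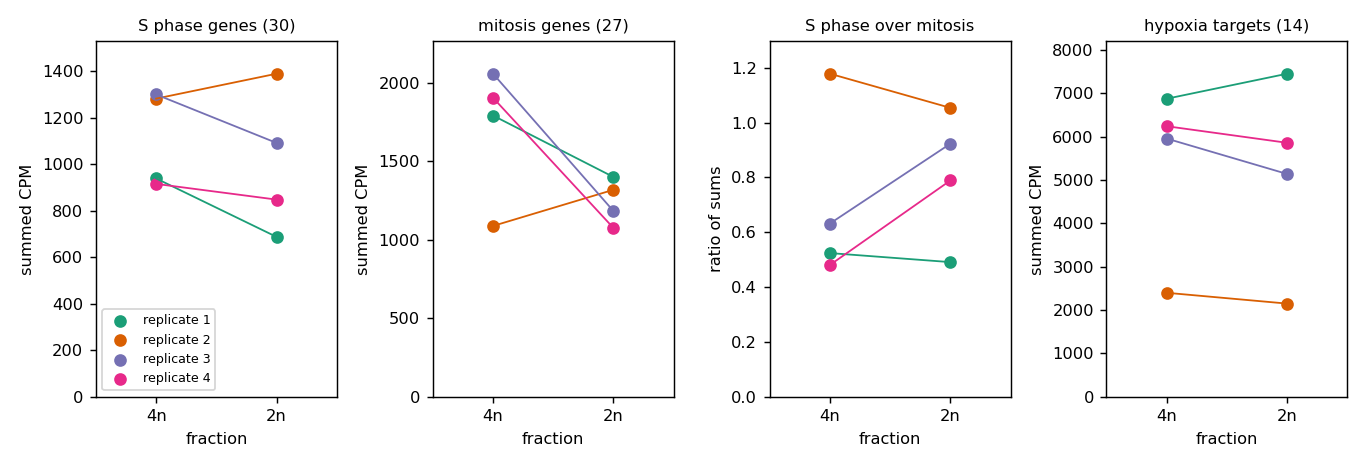
Summed CPM of the 30 S phase genes, 27 mitosis genes and 14 hypoxia targets, and the ratio of the S phase to the mitosis sum (y axes from 0), in 4n and 2n libraries, with a line joining the libraries of a culture. Replicate 2 has the highest ratio in both fractions, 1.18 in 4n and 1.05 in 2n, and the lowest hypoxia sums.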

How the data were processed

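Messenger RNA of 8 libraries, 4 from 4n and 4 from 2n cells, was sequenced. Reads were aligned with HISAT2 2.0.4 to Rnor 6.0, per the submitters' processing notes, a Rattus norvegicus build although the labels name Rattus rattus. How reads were counted, and whether by strand, is not given in the sources used here. Counts were deposited as whole, unscaled numbers per gene. FPKM, also deposited, matched count over gene length and library total, with 1 length per gene.

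Genes were kept by filterByExpr (12983 of 30957), scaled by TMM and fitted with edgeR 4.0.16 in R 4.3.3 (quasi-likelihood, robust, two-sided). The Benjamini-Hochberg adjustment ran over all genes tested, with a threshold of 0.05. The fit of 4n against 2n had the group alone, with the replicate number as a block as an alternative. Differences between cultures were tested as the replicate coefficients in the fit with group. Log2 CPM used a prior count of 2. DESeq2 1.42.0 on counts and limma 3.58.1 on log2(FPKM + 0.1) were alternatives, as were other scalings, no filter and left-out libraries.

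Groups and replicate numbers come from the titles. Deviations from the group means correlated at 0.43, 0.58, 0.27 and 0.65 within the pairs of replicates 1 to 4, and the descriptions of a pair share a code, so the numbers do pair the libraries. Fold changes, errors, intervals and adjusted p of 4n against 2n nevertheless come from the fit without the block unless the block is named. Libraries of a group differed by more than sampling noise (chi-square per degree of freedom of at least 36.4). The members, lists and tests were chosen with earlier results of these data known. Values in each library are given for members called in either test and, per role, for those with the smallest unadjusted p. The tests were tested on simulated data. A gene of the list of other replication genes is counted but not reported here by name.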

Additional observations from a re-analysis of the deposited data

Results flagged for a closer look

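Among 60 groups of 4 libraries (30 genes in 4n and in 2n), 1 library stood far from the other 3 of its group. Tyms, thymidylate synthase, had 18.5 CPM in 2n replicate 1, where the nearest of the other 2n libraries had 29.9 CPM. The gap took 0.937 of the group's range, above Dixon's 95% critical value for a group of 4. Chance flags about 1 in 20 such groups. The same library was the lowest of the 2n libraries for 25 of the 30 genes.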

How the results depend on the processing

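For the 30 genes, 4n against 2n gave 0 calls in each direction under every alternative run, and the median log2 fold change lay between -0.06 and 0.31 on leaving out single libraries and between -0.03 and 0.19 with the replicate block and a pair left out (0.10 with the block and all pairs). On FPKM it was -0.14, with -0.26 over all genes. A direction was counted only for genes past the threshold, so sign changes of genes that did not pass are not listed. Genes called higher and lower over the whole table, 347 and 1 in the main model, were 554 and 79 with the replicate block and 860 and 93 with DESeq2. Genes called lower were 12 with total count scaling, 2 without mitochondrial genes and 15 with limma on FPKM. On leaving out single libraries these counts ranged from 0 to 870 higher and from 0 to 90 lower. With the block and a pair left out they ranged from 0 to 1255 and from 0 to 399 (558 and 50 without replicate 3). They were 0 and 0 without 4n replicate 4, without any single 2n library, and with the block without replicate 2 or 4. In those runs 0 calls among the 30 genes had to follow, so they are no check on these genes.

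Between cultures, members called ranged from 0 to 20 on leaving out single libraries and, in an alternative chosen after seeing the data, from 0 to 20 without both libraries of a culture. DESeq2 called 19 members and limma on FPKM 5, where limma on FPKM called 1516 over all genes. Genes called, 1066 in the main model, were 1913 with total count scaling and 2436 with DESeq2, from 52 to 3308 without single libraries and from 64 to 2520 without a culture (676 without replicate 1, 224 without replicate 2). Over the 30 genes and the alternatives there were 540 comparisons, of which 63 lost a call and 58 gained one. Only the 8 genes called in the main model could lose a call, and only the rest could gain one. Neither count is therefore a share of all 540. The median log2 difference of replicate 2 kept its sign, from 0.46 to 0.75 without single libraries and 0.56 on FPKM. Where 1 library of a culture was left out, the remaining one was assumed to vary like the rest. Gins2 and Orc1 had as few as 57 and 48 counts in a library, which limits their precision.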

Other observations

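Among 18 genes of E2F factors and entry into S phase, 0 passed in edgeR between cultures (8.21% of all genes did). At an unadjusted p under 0.05 there were 5 of 18 (30.3% of all genes). In 4n against 2n 0 passed in edgeR, where 2.67% of all genes were called higher and 0.0077% lower. Their median log2 difference for replicate 2 was 0.15, from -0.46 to 0.63, with 12 of 18 above 0. The nearest to the threshold were as follows. Ccne1 and Ccne2, the E cyclins, had log2 differences for replicate 2 of 0.63 ± 0.14 and 0.56 ± 0.12, with an edgeR adjusted p between cultures of 0.0581 for each, and E2f1 had 0.55 ± 0.16 at 0.0736 (SE).

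Inhibitors of cyclin-dependent kinases and targets of p53 had a median log2 difference of -0.40 for replicate 2 over 12 genes. Of the 12, 6 differed between cultures in edgeR, against 8.21% of all genes tested. Cdkn1a, the inhibitor p21, had 87.1, 56.5, 121 and 233 CPM in 4n replicates 1 to 4, against 72.2, 65.5, 71.0 and 157 CPM in 2n (edgeR adjusted p = 0.0184 between cultures). Its highest levels were in replicate 4, whose median over the 30 S phase genes was -0.38. Replicate 1, with a lower median of -0.42, had 87.1 CPM of Cdkn1a in 4n and 72.2 CPM in 2n. Mdm2, the ubiquitin ligase of p53, was highest in replicate 4 too, at 187 CPM in 4n and 186 CPM in 2n (edgeR adjusted p = 0.00341 between cultures). Btg2, an antiproliferative p53 target, was highest in replicate 4 as well, at 248 CPM in 4n and 137 CPM in 2n (edgeR adjusted p = 0.0156 between cultures). The other genes of the list that differed did not share this order: Cdkn1b and Phlda3 were highest in replicate 1 in both fractions, and Ccng1 was highest in replicate 3 in 4n and in replicate 4 in 2n. Whether these levels and those of the S phase genes are related was not tested.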
